A study of Mus musculus with 30 samples.

Results

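The complement genes followed here were C1qa, C1qb, C1qc, C3ar1, C5ar1, Cfb, Cfp and C3. They were taken as the array's transcript clusters, the probe groups that each stand for a transcript, whose annotated symbol was one of these 8 names, with the brightest cluster used where a gene had several. Of the 8 genes, 7 had a cluster, out of 19479 genes with a cluster of 1 symbol, and each of the 7 had exactly 1 cluster. C3, the central component, was not analysed here. The cells came from male C57BL/6 mice aged 8 to 10 weeks. All mice had the middle cerebral artery occluded for 45 min, a model of stroke, and were killed after 48 h of reperfusion. TREM1-/- mice (KO) lacked triggering receptor expressed on myeloid cells 1, an amplifier of inflammatory signals on myeloid cells, and TREM1+/+ mice (WT) carried the intact gene. CD11b+ cells were sorted from the ischemic hemisphere and measured on Affymetrix Clariom HT arrays. Cells high in CD45 (CD45Hi) were taken as neutrophils where Ly6G+ and as macrophages where Ly6G-, and cells low in CD45 (CD45Lo) as microglia, for which the labels also give Ly6G+. There were 5 KO and 4 WT neutrophil samples, 6 KO and 3 WT macrophage samples, and 6 KO and 6 WT microglia samples. No uninjured or sham-operated mice are among the groups used here, and the labels do not say how many mice gave each sample.

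Complement is a cascade of blood and tissue proteins that marks targets for uptake or lysis. C1q, assembled from the A, B and C chains, opens the classical pathway by binding antibody, dying cells and, in the brain, synapses, and it is made mainly by microglia and other tissue macrophages. Cleavage of C3 and C5 releases the small fragments C3a and C5a, which act on myeloid cells through the receptors encoded by C3ar1 and C5ar1. Factor B (Cfb) and properdin (Cfp) belong to the alternative pathway, in which factor B provides the protease of the C3 convertase and properdin stabilises that enzyme.

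The sorted cells carried the marker genes of their labels, with reservations in the neutrophil samples and in single microglia samples. Over 14 neutrophil marker genes the mean level was 12.96 log2 intensity in KO and 14.03 in WT neutrophils, against 7.55 and 7.61 in KO and WT macrophages and 7.08 and 6.28 in KO and WT microglia. Over 12 monocyte and macrophage markers the mean was 15.25 in KO and 15.19 in WT macrophages, against 13.01 and 12.63 in KO and WT neutrophils and 9.26 and 8.98 in KO and WT microglia. Over 11 microglia markers it was 14.38 in KO and 14.27 in WT microglia, against 9.83 and 9.45 in KO and WT neutrophils and 9.24 and 8.73 in KO and WT macrophages. The low neutrophil markers in microglia stand beside the Ly6G+ entry in the labels' microglia gate. Single neutrophil samples had microglia marker means of 8.76 to 10.49 (KO) and 8.76 to 10.13 (WT). WT neutrophil samples correlated less with one another (mean r 0.93 to 0.96 over clusters) than KO neutrophil samples (0.97 to 0.99), and WT neutrophil 4 had the lowest value. Trem1 itself was lower in KO than in WT neutrophils (-1.22, SE 0.41, adjusted p = 0.0361), with 15.12 to 16.39 in KO and 16.82 to 17.51 in WT samples. It did not pass in macrophages (-0.49, adjusted p = 0.998) or microglia (-1.25, SE 0.36, adjusted p = 1). No cluster passed in microglia, and the Trem1 difference there was about as large as in neutrophils. The change with genotype did not pass as different between neutrophils and microglia (0.02, SE 0.55, adjusted p = 0.985). Trem1 stayed bright in KO neutrophils. Where in the gene the Trem1 probes lie relative to the deletion is not given in the sources used here. WT neutrophil 1, KO neutrophil 5, WT macrophage 1 and KO microglia 6 stood apart from their groups for the C1q chains, so results that rest on them are given with and without them.

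TREM1 KO neutrophils had higher C1qa, C1qb, C1qc, C3ar1 and Cfb than WT neutrophils, by 1.23 to 2.70 on the log2 scale. These were 5 of the 7 measured genes, where 10.7% of all 22103 clusters were higher in KO neutrophils. The C1q chains followed each other closely (r of 0.95 to 0.97), so the 5 are not separate results. C1qa passed in only 2 of 9 fits with 1 neutrophil sample left out. With neutrophil samples alone in the fit 3 of the 5 passed (4.9% of clusters), and 1 with a covariate described below (2.14%). C5ar1 and Cfp did not pass the test in neutrophils. None of the 7 passed in macrophages or in microglia. Differences are KO minus WT in log2 intensity, and a gene passed at an adjusted p (limma, Benjamini-Hochberg over all clusters) under 0.05.

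The promoter sequences of C1qb, C1qc, C3ar1 and Cfp are shown because the first 3 genes moved together in neutrophils while Cfp did not. Each is 300 bases from RefSeq (GRCm38.p6), from 250 bases before to 50 after the gene start, 5′ to 3′ on the minus strand, on which all 4 genes lie. Capitals mark GAGGAA, the core bound by the myeloid factor PU.1. It was searched on both strands, so the reverse complement TTCCTC is capitalised too, and no matches overlapped.
C1qb chr4:136886151-136886450: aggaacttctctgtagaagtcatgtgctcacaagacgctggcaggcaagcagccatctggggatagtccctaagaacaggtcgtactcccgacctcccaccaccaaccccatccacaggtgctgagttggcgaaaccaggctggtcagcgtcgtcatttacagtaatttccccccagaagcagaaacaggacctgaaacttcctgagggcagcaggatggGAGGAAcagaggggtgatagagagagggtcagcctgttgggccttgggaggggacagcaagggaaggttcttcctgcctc
C1qc chr4:136892865-136893164: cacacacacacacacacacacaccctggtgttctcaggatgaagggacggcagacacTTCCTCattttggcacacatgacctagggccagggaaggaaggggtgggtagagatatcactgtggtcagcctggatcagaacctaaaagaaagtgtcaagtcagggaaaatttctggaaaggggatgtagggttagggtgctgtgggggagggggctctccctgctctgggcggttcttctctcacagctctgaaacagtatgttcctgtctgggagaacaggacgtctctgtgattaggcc
C3ar1 chr6:122856108-122856407: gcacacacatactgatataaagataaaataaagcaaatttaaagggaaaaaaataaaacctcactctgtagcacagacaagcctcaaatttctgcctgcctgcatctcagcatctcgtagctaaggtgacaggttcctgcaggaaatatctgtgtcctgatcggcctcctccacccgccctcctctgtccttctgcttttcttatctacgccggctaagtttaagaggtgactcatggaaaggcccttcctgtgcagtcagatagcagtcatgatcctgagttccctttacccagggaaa
Cfp chrX:20931506-20931805: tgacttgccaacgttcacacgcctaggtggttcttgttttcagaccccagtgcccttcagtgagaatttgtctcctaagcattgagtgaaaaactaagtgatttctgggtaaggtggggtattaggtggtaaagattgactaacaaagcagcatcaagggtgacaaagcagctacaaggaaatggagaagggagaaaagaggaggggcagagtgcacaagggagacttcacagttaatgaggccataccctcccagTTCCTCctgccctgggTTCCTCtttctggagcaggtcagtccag
C1qb held the PU.1 core at positions -30 to -25 from the start. C1qc held the PU.1 core on the opposite strand at -193 to -188. These letters were not in the C3ar1 window. Cfp held the PU.1 core on the opposite strand in 2 places after the start, at 6 to 11 and at 22 to 27. Of all 32817 mouse promoters of this length, 28.3% held the PU.1 core, so a match is a description of the letters and not a binding site. C1qb, C1qc and C1qa are direct neighbours on chromosome 4, in that order between Ephb2 and Epha8. C3ar1 lies on chromosome 6, C5ar1 beside C5ar2 on chromosome 7, Cfb beside C2 on chromosome 17 and Cfp on chromosome X.

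Among the C1q chains, C1qb had the largest difference in neutrophils. Its level was 14.06, 14.17, 14.38, 14.01 and 13.29 log2 intensity in KO neutrophils 1 to 5, against 13.80, 10.58, 10.40 and 10.34 in WT neutrophils 1 to 4. WT neutrophil 1 lay among the KO samples, and WT neutrophils 2 to 4 lay far below all of them. The means were 13.98 ± 0.41 in KO (SD, n = 5) and 11.28 ± 1.68 in WT neutrophils (SD, n = 4), a difference of 2.70 (SE 0.48, 6.51-fold, adjusted p = 0.000258).

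C1qc, the C chain, was at 12.85, 13.39, 13.32, 12.31 and 11.62 in KO neutrophils, against 12.69, 9.57, 10.48 and 9.22 in WT neutrophils. WT neutrophil 1 was again the sample that fell within the KO range. The difference was 2.21 (SE 0.46, 4.62-fold, adjusted p = 0.00135). C1qa, the A chain, was at 15.34, 15.88, 15.75, 14.95 and 13.03 in KO neutrophils, against 15.47, 12.81, 12.90 and 13.23 in WT neutrophils. The groups overlapped more here, with KO neutrophils 1, 4 and 5 inside the WT range and WT neutrophils 1 and 4 inside the KO range. The difference was 1.39 (SE 0.48, 2.62-fold, adjusted p = 0.0393), just under the threshold.

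Without WT neutrophil 1 the differences were 2.01 for C1qa (adjusted p = 0.00137), 3.54 for C1qb (6.11e-08) and 2.94 for C1qc (2.03e-06). Without KO neutrophil 5 they were 1.88 for C1qa (0.00193), 2.88 for C1qb (0.000188) and 2.48 for C1qc (0.000413). Without WT neutrophil 4 the differences were smaller for C1qb (2.39, adjusted p = 0.00206) and C1qc (1.78, 0.0106), their lowest with 1 sample left out. Calls for C1qb and C1qc were kept whichever of the 9 neutrophil samples was left out. C1qa passed in 2 of the 9, without WT neutrophil 1 and without KO neutrophil 5. Leaving out any other sample ended the C1qa call, with an adjusted p of up to 0.127 and differences down to 1.13. In a bulk sample, fewer cells of a type and less RNA per cell cannot be told apart, and this holds for each difference given here.

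**Figure D1:**
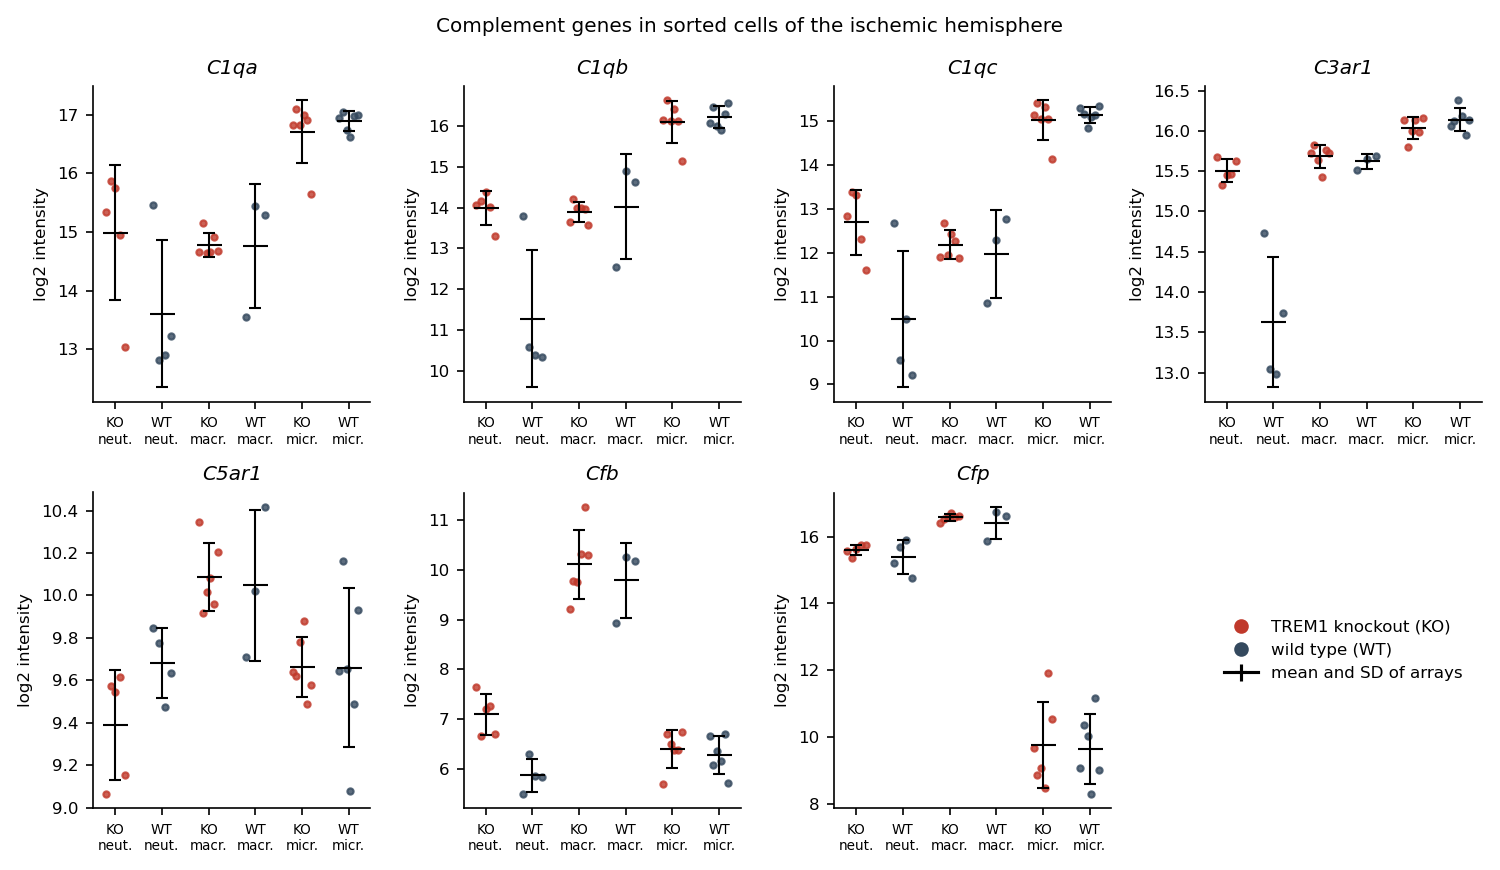
Log2 intensity of the 7 measured complement genes in every sample, with KO (red) left of WT (blue) in neutrophils (neut.), macrophages (macr.) and microglia (micr.). Bars are the mean and SD over samples, the vertical axes differ between genes and do not start at 0, and the C1q panels show WT neutrophil 1 among the KO neutrophils.

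No C1q chain passed the test between KO and WT macrophages or between KO and WT microglia. C1qb was between 13.57 and 14.21 in KO macrophages (median 13.97), against 12.55, 14.89 and 14.62 in WT macrophages. WT macrophage 1 was the low sample, also for C1qa (13.54, against 15.45 and 15.29 in the other two) and C1qc (10.86, against 12.30 and 12.78). KO minus WT in macrophages was 0.03 for C1qa (SE 0.50), -0.13 for C1qb (95% interval -1.17 to 0.91) and 0.21 for C1qc (-0.79 to 1.21). Without WT macrophage 1 these were -0.58, -0.87 and -0.35, each with an adjusted p of 1. In microglia the C1qb range was 15.14 to 16.62 in KO (median 16.13), against 15.91 to 16.56 in WT (median 16.18). The lowest KO value of each chain came from KO microglia 6, and the remaining samples overlapped. KO minus WT in microglia was -0.17 for C1qa (95% interval -1.02 to 0.67), -0.12 for C1qb (-0.97 to 0.73) and -0.12 for C1qc (-0.94 to 0.69). Without KO microglia 6 these were 0.04, 0.07 and 0.05.

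Of the 7 genes, 0 passed in macrophages, where 0.00452% of clusters did (1 cluster), and 0 passed in microglia, where 0% did. By the same limma fit, 0 of the 7 had an unadjusted p under 0.05 in either cell type, while 1029 clusters had one in macrophages and 646 in microglia. The change with genotype was then compared between cell types. It was larger in neutrophils than in microglia for C1qb (by 2.83, SE 0.64, adjusted p = 0.00798), C1qc (2.33, SE 0.61, 0.0216) and C3ar1 (1.98, SE 0.28, 0.000157), or 3 of 7 genes, where 4.06% of clusters had a larger change. It was larger in neutrophils than in macrophages for C1qb (by 2.84, SE 0.70, adjusted p = 0.0155) and C3ar1 (1.82, SE 0.31, 0.00192), or 2 of 7, where 4.36% of clusters had one. C1qc missed the threshold there, with a difference of 2.00 (95% interval 0.62 to 3.38, adjusted p = 0.0657). C1qc passed there without WT neutrophil 1 (2.73, adjusted p = 0.00111), without KO neutrophil 5 (2.27, 0.0281) or without WT macrophage 1 (2.56, 0.0297). In the comparison with microglia C1qc missed the threshold without WT neutrophil 2 or 4 (differences down to 1.91, adjusted p up to 0.0626), and C1qb missed it in the comparison with macrophages without WT macrophage 2 or 3 (adjusted p up to 0.0586) or with only the compared samples in the fit (0.0675). Without WT neutrophil 1 or without KO neutrophil 5, C1qa passed too, in both comparisons (1.85 to 2.18, adjusted p of 0.0112 to 0.0421). Between macrophages and microglia, 0 of 7 genes differed in their change with genotype, as did 0% of clusters, and 0 of 7 had an unadjusted p under 0.05, against 761 clusters.

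**Figure D2:**
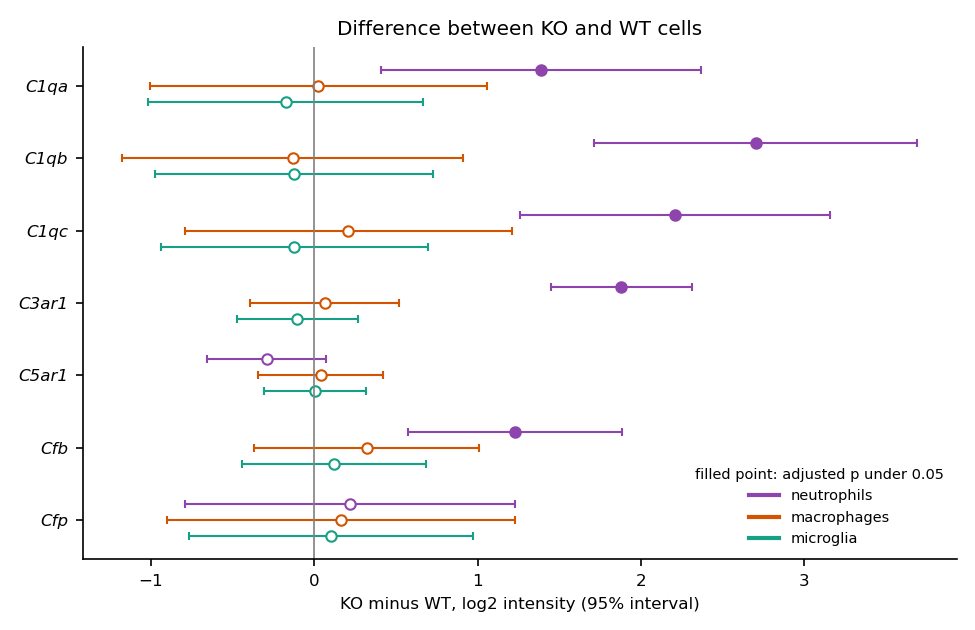
Difference between KO and WT cells for each complement gene, in log2 intensity with its 95% interval from the limma fit, by cell type. Filled points passed at an adjusted p under 0.05, and the 5 filled points are all neutrophil differences, from 1.23 for Cfb to 2.70 for C1qb.

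C3ar1, the C3a receptor, had the lowest adjusted p of the 7 genes in neutrophils. It was at 15.68, 15.32, 15.45, 15.46 and 15.63 log2 intensity in KO neutrophils, against 14.73, 13.05, 12.99 and 13.74 in WT neutrophils. Every KO sample was above every WT sample, and the KO samples spread over less than the WT samples did. The difference was 1.88 (SE 0.21, 3.68-fold, 95% interval 2.73 to 4.97, adjusted p = 1.95e-06). The 2 groups did not overlap for 11.4% of all clusters. The C3ar1 call held whichever neutrophil sample was left out, with differences of 1.67 to 2.25. In macrophages C3ar1 was between 15.43 and 15.82 in KO (median 15.73), against 15.51, 15.66 and 15.69 in WT. In microglia it was between 15.79 and 16.16 in KO (median 16.07), against 15.95 to 16.38 in WT (median 16.13). The groups overlapped in both cell types, and KO minus WT was 0.06 in macrophages (95% interval -0.39 to 0.52) and -0.10 in microglia (-0.47 to 0.27).

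C5ar1, the receptor that draws neutrophils towards C5a, was at 9.06, 9.57, 9.55, 9.62 and 9.16 in KO neutrophils, against 9.85, 9.77, 9.48 and 9.63 in WT neutrophils. All KO samples lay below the WT mean, and the groups overlapped. The difference was -0.29 (95% interval -0.65 to 0.07, adjusted p = 0.245). It passed after quantile normalization of all arrays (-0.58, adjusted p = 0.0168) and of each cell type (-0.58, 0.0164), and in none of the other 8 alternative settings. In macrophages C5ar1 was between 9.92 and 10.35 in KO (median 10.05), against 9.71, 10.02 and 10.42 in WT, a difference of 0.04 (95% interval -0.34 to 0.42). In microglia it was between 9.49 and 9.88 in KO (median 9.63), against 9.08 to 10.16 in WT (median 9.65), a difference of 0.00 (95% interval -0.31 to 0.32).

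Of the alternative pathway genes, Cfb differed with genotype in neutrophils and Cfp did not pass. Cfb was at 7.64, 6.66, 7.20, 7.27 and 6.71 in KO neutrophils, against 5.49, 6.30, 5.85 and 5.83 in WT neutrophils. Every KO sample was above every WT sample. All WT values and the lowest KO value were under 6.69, the middle of the array's cluster means. Signal over background is not given, so the Cfb difference is one between dim values. It was 1.23 (SE 0.32, adjusted p = 0.00754) and passed whichever neutrophil sample was left out. In macrophages Cfb was between 9.21 and 11.27 in KO (median 10.05), against 8.93, 10.26 and 10.19 in WT. KO minus WT there was 0.32 (95% interval -0.37 to 1.01), and -0.11 without WT macrophage 1. In microglia Cfb was between 5.68 and 6.73 in KO (median 6.44), against 5.71 to 6.69 in WT (median 6.25), with a difference of 0.12 (-0.44 to 0.68).

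Cfp was at 15.57, 15.36, 15.61, 15.74 and 15.73 in KO neutrophils, against 15.20, 15.67, 15.90 and 14.75 in WT neutrophils. The KO samples lay inside the range of the WT samples. The difference was 0.22 (95% interval -0.79 to 1.23, adjusted p = 0.78). Cfp varied widely between microglia samples, with 8.46 to 11.90 in KO (median 9.36), against 8.29 to 11.15 in WT (median 9.53). KO microglia 5, with the highest Cfp, also had the highest mean of monocyte and macrophage markers among KO microglia (10.04). WT microglia 5 had the highest Cfp in WT, while its mean of these markers (9.13) was below that of WT microglia 3 (9.61). The part of other cells in this spread was not tested. KO minus WT was 0.10 in microglia (95% interval -0.77 to 0.97) and 0.16 in macrophages (-0.90 to 1.23).

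Over the 7 genes, the median KO minus WT difference in neutrophils was 1.39, beside -0.13 over all clusters. It was 0.06 in macrophages, beside 0.03 over all clusters, and -0.10 in microglia, beside 0.00. In neutrophils 19.9% of all clusters differed with genotype in one direction or the other. The neutrophil samples also differed in the level of broadly expressed clusters, 2015 clusters that were bright in every macrophage and microglia sample and alike in WT macrophages and microglia. Their median was 13.21, 13.08, 13.11, 13.16 and 12.85 log2 intensity in KO neutrophils 1 to 5, against 12.91, 12.80, 12.70 and 12.42 in WT neutrophils 1 to 4. KO neutrophil 5 and WT neutrophil 1, the samples that stood apart in the C1q chains, were the lowest KO and the highest WT sample here too. C3ar1 is itself 1 of the 2015 clusters, of which 38.8% were higher in KO neutrophils, with a median difference of 0.44. The broad level of every macrophage sample (13.29 to 13.47) and microglia sample (13.26 to 13.49) was above that of every neutrophil sample. The 2015 clusters were chosen without a condition on neutrophils. Between neutrophils and another cell type this level is thus tied to cell type, and values adjusted for it are extrapolated.

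The level of broadly expressed clusters was close to genotype within neutrophils. KO neutrophils 1 to 4 (13.08 to 13.21) were above every WT sample, and only KO neutrophil 5 (12.85) lay inside the WT range. An adjustment for this level can thus hardly be separated from genotype, and a lost call does not show which of them a gene follows. With this level as a covariate, C3ar1 kept its call in neutrophils (1.77, adjusted p = 0.00222) and the other 4 lost theirs. C1qb was then 1.00 (adjusted p = 0.406), C1qc 0.59 (0.71), Cfb 0.88 (0.39) and C1qa -0.17 (0.951). Over all clusters the count of calls was 474 with the covariate and 4390 without it. With only the 9 neutrophil samples in the fit, 1084 clusters and 3 of the 7 genes passed. These were C1qb (adjusted p = 0.0449), C3ar1 (0.0201) and Cfb (0.0269), while C1qa (0.219) and C1qc (0.0801) did not pass. The main fit takes 1 spread per cluster from all groups, and the median SD was widest in WT neutrophils (0.38). For the neutrophil change minus that in microglia, C3ar1 passed with the covariate (1.88, adjusted p = 0.0131), and C1qb (1.22, 0.435) and C1qc (0.81, 0.657) did not, where 0.507% of clusters passed. For the neutrophil change minus that in macrophages, neither C1qb (1.06, 0.614) nor C3ar1 (1.70, 0.0554) passed with it, where 0.131% of clusters did. C1qa also lost its call in neutrophils under quantile normalization of all arrays (adjusted p = 0.0685) and of each cell type (0.0631).

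**Figure D3:**
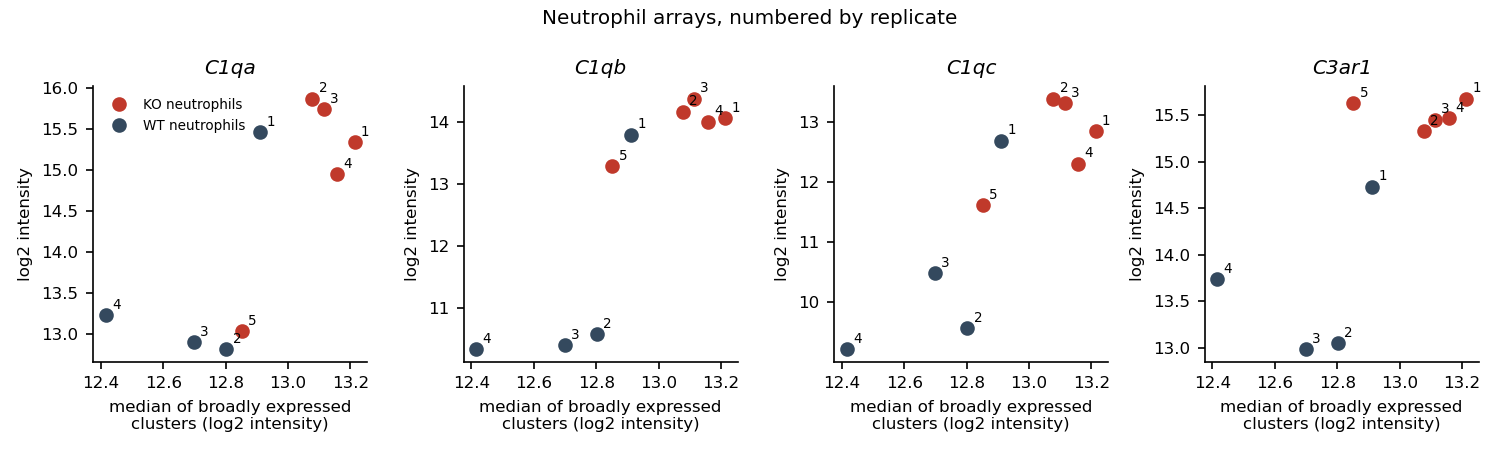
Log2 intensity of C1qa, C1qb, C1qc and C3ar1 in each neutrophil sample (KO red, WT blue, numbered by replicate) against the median log2 intensity of 2015 broadly expressed clusters in the same sample. KO samples have broad levels of 12.85 to 13.21 and WT samples 12.42 to 12.91, and in C3ar1 all KO samples lie above all WT samples.

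Markers of other cell types also differed between KO and WT neutrophils. Of 8 genes of border-associated macrophages, which line the vessels and meninges of the brain and express C1q, 4 were higher (Cbr2, Siglec1, Folr2 and Stab1, by 1.59 to 3.39) and Lyve1 was lower (-0.87). Their summed intensity was 80357 to 321951 in KO and 40270 to 145765 in WT neutrophils. Of 12 monocyte and macrophage markers, 5 were higher and 1 was lower, and their summed intensity was 270701 to 440884 in KO and 219290 to 320162 in WT neutrophils. Of 11 microglia markers, Trem2 was higher (3.03, adjusted p = 1.95e-06) and P2ry12 lower (-0.97, 0.0132), and the summed intensity was 18150 to 60113 in KO and 24366 to 133265 in WT neutrophils. Of the 11 differences 8 were positive, with a median of 0.04, and 2 of the 11 had a mean under 6.69, the middle of the array's cluster means, in KO neutrophils, as did 2 in WT neutrophils. Of 14 neutrophil markers, 4 were lower and none higher, with sums of 419234 to 798936 in KO and 804220 to 1436342 in WT neutrophils. Among WT neutrophils, WT neutrophil 1 had the highest means of the microglia markers (10.13) and of the border-associated macrophage markers (9.55, next 9.50). It had the lowest means of the monocyte and macrophage markers (12.03) and of the neutrophil markers (13.12). Among KO neutrophils, KO neutrophil 4 had the lowest mean of the microglia markers (8.76), with C1qb at 14.01. KO neutrophil 5, low in the C1q chains, was at 9.62 in the microglia markers. Of the markers of astrocytes (6), neurons (6) and oligodendrocytes (5), none passed, while Kdr of 6 endothelial markers was higher (2.32) and Cd3d of 7 lymphocyte markers lower (-0.66). The shares of microglia, endothelial and lymphocyte markers that passed were under the 19.9% of all clusters that did. The part that such cells have in the C1q and C3ar1 differences was not tested.

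Between cell types, the C1q chains were highest in microglia and Cfb in macrophages, in both genotypes. Cfp was higher in macrophages and in neutrophils than in microglia. In WT neutrophils against WT microglia, 5 of the 7 genes passed, where 54.3% of clusters did. C1qa, C1qb and C1qc were lower in WT neutrophils, with differences of -3.29 (SE 0.46, adjusted p = 5.61e-07), -4.93 (SE 0.46, 3.98e-10) and -4.66 (SE 0.45, 5.53e-10), and C3ar1 was lower too (-2.51, SE 0.20, 1.96e-11). Cfp was higher in WT neutrophils by 5.74 (SE 0.48, 53.4-fold, adjusted p = 3.24e-11). For all 5 genes no WT neutrophil sample overlapped a WT microglia sample, which held for 35.8% of clusters. With the level of broadly expressed clusters as a covariate, C3ar1 and Cfp passed, where 24% of clusters did, and C1qa (-0.53, adjusted p = 0.665), C1qb (-1.91, 0.0594) and C1qc (-1.79, 0.0687) did not. That level did not overlap between WT neutrophils and WT microglia, so these adjusted values are extrapolated.

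In WT macrophages against WT microglia, 5 of 7 passed, where 37.5% of clusters did. C1qa, C1qb and C1qc were lower in WT macrophages, with differences of -2.13, -2.19 and -3.17 (adjusted p = 0.00131, 0.00112 and 6.8e-06). Cfb was higher by 3.51 (adjusted p = 1.33e-09), against values in WT microglia that are dim as in neutrophils, and Cfp by 6.76 (109-fold, 1.43e-11). C3ar1 (-0.52, 95% interval -0.97 to -0.06, adjusted p = 0.0677) and C5ar1 (0.39, 0.01 to 0.77, 0.104) did not pass. In WT neutrophils against WT macrophages, 4 of 7 passed, all lower in neutrophils, where 51.6% of clusters differed in either direction. These were Cfb (-3.93, adjusted p = 1.34e-09), C1qb (-2.74, 0.000172), C3ar1 (-1.99, 1.5e-07) and C1qc (-1.49, 0.02). The C1qc call was lost without WT neutrophil 2 or 4 or WT macrophage 2 or 3, with an adjusted p of up to 0.135. With the covariate Cfb and C3ar1 passed, where 9.8% of clusters did, while C1qb (0.41, adjusted p = 0.809) and C1qc (1.51, 0.236) turned in direction and did not pass. The broad levels of WT neutrophils and WT macrophages did not overlap, so these adjusted values are extrapolated. With only the compared samples in the fit, C1qb (0.0538) and C1qc (0.193) also lost their calls.

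Cfp did not pass between neutrophils and macrophages, with -1.02 in WT cells (adjusted p = 0.129) and -0.97 in KO cells (0.0996). Every KO neutrophil sample (15.36 to 15.74) was nonetheless below every KO macrophage sample (16.41 to 16.72), while the WT groups overlapped. The share of clusters with such a separation is not given here. The fit shares 1 spread per cluster over all groups, and Cfp varied most in microglia. In KO cells Cfp passed with only the compared samples in the fit (4.39e-05).

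In KO neutrophils against KO microglia, 6 of 7 passed, where 45% of clusters did. C1qa, C1qb and C1qc were lower in KO neutrophils, with differences of -1.73, -2.11 and -2.33 (adjusted p = 0.00163, 0.000225 and 3.9e-05), as was C3ar1 (-0.53, 0.025), while Cfp was higher by 5.86 (7.99e-12) and Cfb by 0.70 (0.0497). With the covariate only Cfp and Cfb passed there, where 39.4% of clusters did, and C1qa was at -0.43 (0.492), C1qb at -0.69 (0.231), C1qc at -0.98 (0.0749) and C3ar1 at -0.43 (0.19). In KO macrophages against KO microglia, 6 of 7 passed, where 43.3% of clusters did, with C1qa, C1qb and C1qc at -1.93, -2.20 and -2.84, Cfb at 3.71, Cfp at 6.82 and C5ar1 at 0.42. The calls of C5ar1 there (without KO macrophage 1 or KO microglia 5, adjusted p up to 0.0624), and of C3ar1 (without KO neutrophil 2, 0.0613) and Cfb (without any of 7 samples, up to 0.14) between KO neutrophils and KO microglia, rested on single samples. The median over all clusters was -0.21 for KO macrophages and -0.20 for KO neutrophils against KO microglia, and -0.25 for WT macrophages and -0.06 for WT neutrophils against WT microglia. In KO neutrophils against KO macrophages, 2 of 7 passed, where 31.7% of clusters did. These were Cfb (-3.02, adjusted p = 3.01e-09) and C5ar1 (-0.70, 0.00134). The C1q chains did not pass there, with differences of 0.21 for C1qa (95% interval -0.68 to 1.09), 0.09 for C1qb (-0.80 to 0.98) and 0.51 for C1qc (-0.35 to 1.37), and C3ar1 was at -0.18 (-0.57 to 0.21). With the covariate C1qa (1.47, adjusted p = 0.0242), C1qb (1.48, 0.0179) and C1qc (1.82, 0.00302) passed as higher in KO neutrophils and C5ar1 (-0.44, 0.127) did not pass, where 21.2% of clusters passed. The broad levels of KO neutrophils did not overlap those of KO macrophages or KO microglia, so values adjusted for them are extrapolated.

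In the order of the 6 group means, C1qc ran from WT microglia (15.15 ± 0.18) and KO microglia (15.03 ± 0.45) over KO neutrophils (12.70 ± 0.74), KO macrophages (12.19 ± 0.34) and WT macrophages (11.98 ± 1.00) to WT neutrophils (10.49 ± 1.56). Only the steps below KO microglia and below WT macrophages passed the test. C1qa had the same order, and of its steps only that from KO microglia (16.71 ± 0.53) to KO neutrophils (14.99 ± 1.15) passed. For C3ar1 the 5 upper groups lay between 15.51 and 16.14, in overlapping neighbours, and the step down to WT neutrophils (13.63 ± 0.81) was the one without overlap. C5ar1 means lay between 9.39 and 10.09 in all 6 groups, each neighbouring pair overlapping. Cfp means were 16.57 ± 0.10 in KO and 16.41 ± 0.48 in WT macrophages, 15.60 ± 0.15 in KO and 15.38 ± 0.51 in WT neutrophils, and 9.75 ± 1.28 in KO and 9.64 ± 1.05 in WT microglia.

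Over the 30 samples the C1q chains followed each other closely. Pearson's r was 0.97 between C1qa and C1qc, 0.96 between C1qb and C1qc and 0.95 between C1qa and C1qb, and each chain ranked between 1 and 15 among 9522 genes by likeness to another. These correlations are across samples of 3 cell types and share the samples' cell type and brightness, so they are a description only. Outside the 7 genes, the most alike to C1qa were Pabpc4, Tspan4 and Abhd12 (r of 0.96 each), to C1qb Camk1, Gusb and Trem2 (0.97 each), and to C1qc Bin1 (0.98), Lap3 (0.97) and Abhd12 (0.96). C3ar1 was most like Cxcl16, Naa15 and Inppl1 (r of 0.96, 0.96 and 0.95), and its r with C1qb was 0.87. Cfp was most like Emb, Emilin2 and Thbs1 (r of 0.99, 0.99 and 0.98), and Cfb most like Uck2, Arhgef10l and Lrrc8c (0.96, 0.95 and 0.95). C5ar1, which varied least between groups, had lower values, with 0.77 for Rbms2, 0.76 for Selenok and 0.75 for Rbck1.

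Of 52 further complement genes, 50 were measured, and in neutrophils 5 were higher and 10 lower in KO, beside 10.7% and 9.14% of all clusters. Their median difference was -0.16, beside -0.13 over all clusters. Of 10 other receptors and binding proteins, 4 were higher, all with separate groups, which held for 11.4% of all clusters. Cd93, a surface receptor once described as a C1q receptor, was at 11.56 ± 0.78 in KO and 9.38 ± 0.40 in WT neutrophils (difference 2.18, SE 0.36, adjusted p = 0.000106). Calr, the chaperone calreticulin that binds C1q on dying cells, was at 13.33 ± 0.49 in KO and 11.42 ± 0.30 in WT neutrophils (1.91, SE 0.24, 4.5e-06). Lrp1, an uptake receptor that pairs with calreticulin, was at 15.48 ± 0.31 in KO and 13.65 ± 0.95 in WT neutrophils (1.82, SE 0.30, 0.000104). C1qbp, a mainly mitochondrial protein that binds C1q, was at 12.90 ± 0.34 in KO and 11.53 ± 0.63 in WT neutrophils (1.37, SE 0.23, 0.000147). Calr, Lrp1 and C1qbp are among the 2015 broadly expressed clusters, of which 38.8% were higher in KO neutrophils, and Cd93 is not.

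C5ar2, the second C5a receptor, was lower, at 11.71 ± 0.21 in KO and 12.35 ± 0.32 in WT neutrophils (-0.63, adjusted p = 0.0372), with separate groups. Itgam, the CD11b chain of a complement receptor on phagocytes, was lower (-0.57, adjusted p = 0.029), with overlapping groups. Of 16 regulators, Thbd was higher (0.81) and Clu (-1.84), Cd46 (-0.85) and Serping1 (-0.54) were lower. Clu, the fluid-phase regulator clusterin, ranged from 8.46 to 10.51 in KO and from 9.79 to 14.52 in WT neutrophils. Of 18 genes of classical and lectin initiation and the convertases, C1rl, C4b, Fcnb and C1s1 were lower (-0.86 to -0.62) and none was higher. Of 6 terminal components, C7 was lower (-0.58). All these lower calls, and that of Thbd, were lost without at least 1 of the neutrophil samples, and with only the neutrophil samples in the fit, while the calls of Cd93, Calr, Lrp1 and C1qbp were kept. Calr and Lrp1 also kept their calls with the level of broadly expressed clusters as a covariate (adjusted p = 0.00894 and 0.0121), and Cd93 (0.0909) and C1qbp (0.105) did not.

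The change with genotype in Cd93, Calr, Lrp1 and C1qbp was larger in neutrophils than in microglia (by 1.92, 1.53, 1.95 and 1.37) and than in macrophages (by 1.88, 1.28, 1.99 and 1.45), each past the threshold. These were the 4 of the 50 genes with a larger change in either comparison, or 8% of them against microglia, beside 4.06% of clusters there and 4.36% against macrophages. Clu (-2.99, adjusted p = 0.0401) and Serping1 (-0.77, 0.0453) had a lower change in neutrophils than in macrophages. In macrophages and in microglia 0 of the 50 genes passed. At an unadjusted p under 0.05 in the limma fit there were 4 of 50 (8%) in macrophages, beside 4.66% of clusters, and 1 of 50 (2%) in microglia, beside 2.92%. The 1 in microglia was Cd59a, an inhibitor of the membrane attack complex, at 8.84 ± 1.00 in KO and 7.64 ± 0.45 in WT microglia (95% interval of the difference 0.49 to 1.92, adjusted p = 1).

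**Figure D4:**
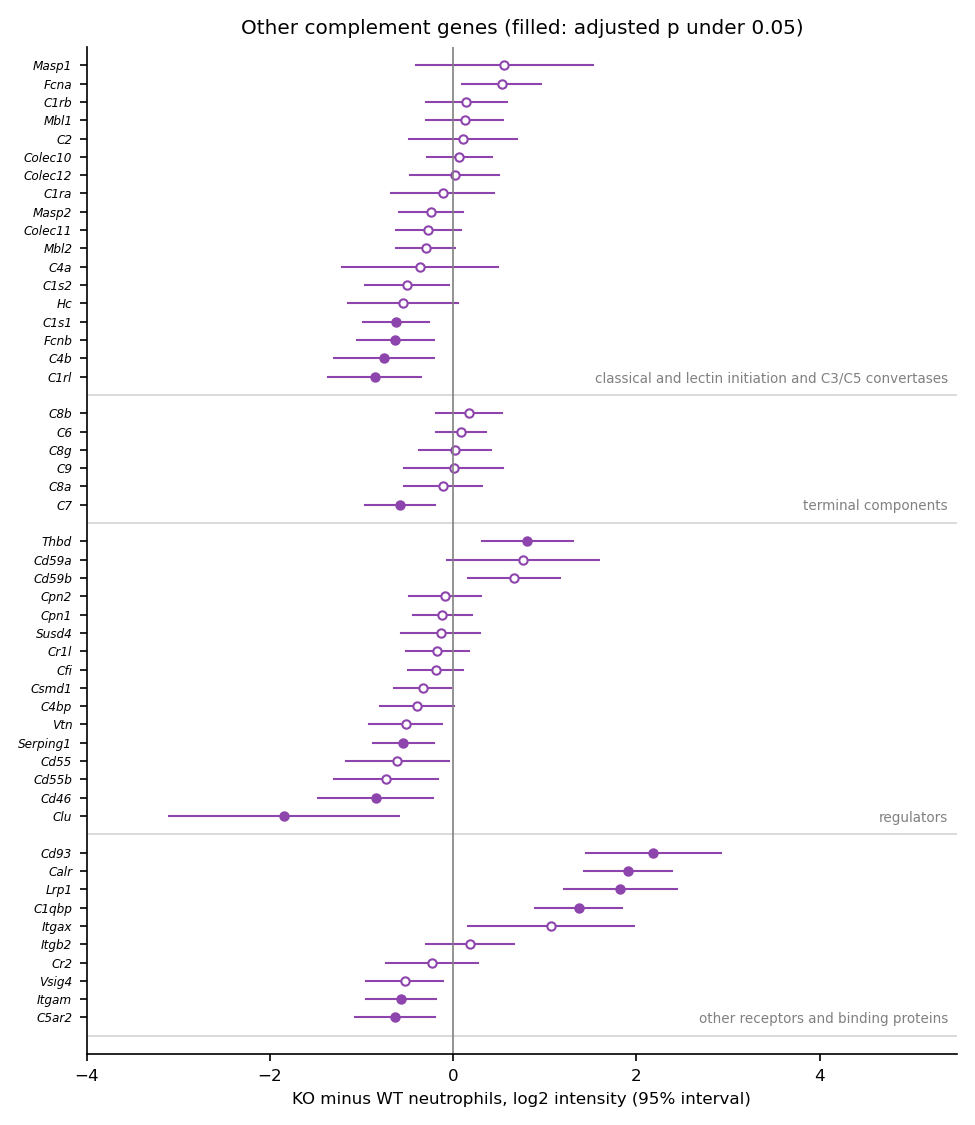
KO minus WT neutrophils for the 50 other complement genes, in log2 intensity with 95% intervals, grouped by role. Filled points passed at an adjusted p under 0.05, 5 higher and 10 lower, beside 10.7% and 9.14% of all clusters. Of the 5 higher genes, 4 are receptors and binding proteins, and of these Calr, Lrp1 and C1qbp are broadly expressed.

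Between WT cell types, Cd93 was higher in macrophages than in microglia by 6.47 (adjusted p = 4.24e-14) and in neutrophils than in microglia by 3.18 (6.73e-09), with a dim mean of 6.19 in WT microglia. Masp1, a protease of the lectin pathway, was lower in WT macrophages, at a dim mean of 4.68, than in WT microglia (-5.82, adjusted p = 1.19e-10) and in WT neutrophils than in WT microglia (-2.37, 5.77e-05). Itgax, the CD11c chain of another such receptor, was higher in WT macrophages than in WT microglia by 11.3-fold (5.76e-07). Cd46, a regulator that in mice is best known from the testis, was higher in WT neutrophils than in WT microglia (2.73, adjusted p = 5.24e-09) and than in WT macrophages (3.40, 8.3e-09). Of the 50 genes, 18 were higher and 13 lower in WT neutrophils than in WT microglia, 6 higher and 10 lower in WT macrophages than in WT microglia, and 18 higher and 10 lower in WT neutrophils than in WT macrophages. These are 62%, 32% and 56% of the 50 genes, near the 54.3%, 37.5% and 51.6% of all clusters that passed.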

How the data were processed

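RNA of sorted cells was hybridised to Clariom HT arrays. The authors deposited linear intensities obtained with RMA, per the submitters' processing notes, without a version or a statement of which arrays were normalized together. RNA had an integrity number above 7.5, and 0.6 to 0.8 ng was used, per the labels. Their log2 was taken without a pseudocount or a filter, for 22103 clusters on 30 arrays, with array medians of 83.7 to 120 intensity units, and precision is limited by how many arrays there are. Gene symbols came from the platform annotation, with gene numbers matched to RefSeq, and 2595 clusters had none.

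Groups were genotype by cell type as labelled. All arrays entered a single limma fit (version 3.58.1, R 4.3.3) with a mean for each group (24 residual degrees of freedom), giving 12 comparisons, each adjusted by Benjamini-Hochberg over all clusters. The fit was tested on simulated data. Titles call the samples biological replicates without naming mice, so p-values measure the spread between these samples. Errors are the SD of samples or the SE of the fit, and intervals are 95%. Alternatives listed in the closing section, and leaving out each array, were tried for the counts of calls in each comparison and for members and genes named by rule, but not for levels, marker lists, correlations, other genes' differences between changes, or single genes in the macrophage change minus that in microglia.

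The members and all gene lists were chosen with earlier results of these data known. Genes named were all members, up to 4 other complement genes of each role with the smallest p in comparisons of genotype and 3 in those of WT cell types, and the 3 genes most correlated with each member among genes at or above 6.69 on average. Itgam, C5ar2 and the genes of other comparisons outside this rule were named after their values were seen. Promoters for 6 of 8 members were in the RefSeq table used.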

Additional observations from a re-analysis of the deposited data

Results flagged for a closer look

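In 6 of the 35 groups of member values that could be examined, 1 sample stood far from the others by Dixon's test, where chance gives about 1 in 20. Of the 6, 5 were in the C1q chains of WT neutrophil 1 and KO microglia 6, and since these chains correlate closely the 6 are not independent. C1qa in WT neutrophil 1 was 15.47 log2 intensity, against 13.23 in the next highest of the WT neutrophils, and C1qb in the same sample was 13.8, against 10.58. KO microglia 6 was the lowest KO microglia sample in C1qa (15.65, next 16.82), C1qb (15.14, next 16.12) and C1qc (14.15, next 15.05). Cfb in KO microglia 1 was 5.68, the next lowest being 6.38, both below the median of cluster means.

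The KO minus WT difference itself differed between cell types in 5 tests. It was larger in neutrophils than in microglia by 2.83 for C1qb, 2.33 for C1qc and 1.98 for C3ar1. It was larger in neutrophils than in macrophages by 2.84 for C1qb and 1.82 for C3ar1. Without WT neutrophil 1 these values were 3.67, 3.06 and 2.35 against microglia and 3.68 and 2.18 against macrophages. Without WT neutrophil 4, C1qc against microglia did not pass (1.91, adjusted p = 0.0626). With the level of broadly expressed clusters as a covariate, 1 of the 3 passed against microglia and 0 of the 2 against macrophages, and with only the compared samples in the fit, 3 and 1.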

How the results depend on the processing

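The alternatives were quantile normalization of all arrays or within cell types, centring on the median, weights for arrays, a trended and robust variance prior, no dim clusters, the brightest cluster per gene, the compared arrays alone, a replicate block, and the level of broadly expressed clusters as a covariate. In neutrophils the calls of C1qb, C1qc and Cfb each failed in 1 or 2 of the 10 alternatives, C1qa in 4 and C3ar1 in none.

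With the covariate, the calls numbered 474 in KO against WT neutrophils (1 member), 3 in KO against WT macrophages, 5310 in WT neutrophils against WT microglia (2 members) and 2167 in WT neutrophils against WT macrophages (2 members). There were then 2 members in KO neutrophils against KO microglia (39.4% of clusters), 4 against KO macrophages (21.2%), and 112 calls (1 member) and 29 calls (0 members) for the neutrophil change minus that in microglia and in macrophages. C1qa (-0.17), Cfp (-0.27) and Clu (0.0824) turned in KO against WT neutrophils, as did C1qa (-0.25) in the neutrophil change minus that in macrophages. C1qa (1.72), C1qb (0.41), C1qc (1.51) and C5ar1 (0.23) turned in WT neutrophils against WT macrophages, Cfb (0.21) in WT neutrophils against WT microglia and C5ar1 (-0.0154) in KO against WT microglia. Between neutrophils and another cell type the broad levels of the compared groups did not overlap, so the adjusted values there are extrapolated. Between KO and WT neutrophils only KO neutrophil 5 lay inside the WT range, so the covariate can hardly be separated from genotype there. The cause of these changes was not tested.

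With the compared arrays alone, calls numbered 1084 (3 members) in KO against WT neutrophils, 9 in macrophages, 7299 (2 members) in WT neutrophils against WT macrophages, and 821 and 631 (1 member) for the neutrophil change minus that in microglia and in macrophages. Fewer samples estimate the spread there, and the spread is no longer shared with the other groups. The median SD over clusters was 0.38 in WT neutrophils, against 0.28 to 0.30 in the other groups. Calls rose in KO neutrophils against KO macrophages (7784, against 7008 in the main fit). They fell in WT neutrophils against WT microglia (10443, against 12007). Array weights gave 4 members in the neutrophil change minus that in macrophages, where 9.03% of clusters passed.

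Samples with a shared replicate number were not treated as paired in the main fit. In no comparison did every such pair correlate above 0.1, though some pairs did (range -0.20 to 0.26 over KO and WT neutrophils). With so few pairs this check cannot exclude pairing. With the replicate block the neutrophil change minus that in macrophages had 994 calls, and Cfp in KO against WT neutrophils (-0.0212) and C1qb in macrophages (0.0529) turned. Neutrophil calls numbered 4340 with the block.

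Other uncalled differences near 0 turned as well. In KO against WT macrophages these were C1qa (-0.0217) and C5ar1 (-0.0081) after centring, and C1qa (-0.16), C1qc (-0.0915) and C5ar1 (-0.10) with array weights. In KO against WT microglia C5ar1 turned with quantile normalization of all arrays (-0.0170), quantile normalization within cell types and array weights (-0.0165 each) and with centring (-0.002). C5ar1 turned after quantile normalization of all arrays in WT neutrophils against WT macrophages (0.25) and KO neutrophils against KO microglia (0.20). Centring turned C3ar1 in KO macrophages against KO microglia (0.0125) and C1qb in KO neutrophils against KO macrophages (-0.0004).

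With 1 sample left out, calls ranged from 2883 to 5557 in KO against WT neutrophils (4 to 5 members), 0 to 9 in macrophages and 0 to 1 in microglia. For the neutrophil change minus that in microglia and in macrophages they ranged from 724 to 2611 (2 to 4 members) and from 786 to 2790 (1 to 4 members). KO against WT macrophages ran from -0.58 to 0.37 for C1qa, -0.87 to 0.30 for C1qb, -0.35 to 0.61 for C1qc, -0.13 to 0.22 for C5ar1, -0.11 to 0.55 for Cfb and -0.11 to 0.33 for Cfp. KO against WT microglia ran from -0.25 to 0.0388 for C1qa, -0.23 to 0.0691 for C1qb, -0.20 to 0.0511 for C1qc, -0.11 to 0.11 for C5ar1 and -0.33 to 0.40 for Cfp. C5ar1 in WT neutrophils against WT microglia ran from -0.0934 to 0.124, and in KO neutrophils against KO macrophages C1qa ran from -0.0156 to 0.696 and C1qb from -0.0070 to 0.265.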
